A study of Mus musculus with 3 samples.

Results

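The interleukin-3 receptor of mouse mast cells is built from the products of 3 genes: Il3ra, which encodes the alpha chain, and the beta chain genes Csf2rb and Csf2rb2. Peaks of Tet2 CLIP were taken as theirs where the midpoint of the peak lay within the mm10 span of the gene. This gave 58 peaks of the 8196 in the series, 34 in Csf2rb2, 23 in Csf2rb and 1 in Il3ra. Tet2 is an enzyme that oxidises 5-methylcytosine, and CLIP (cross-linking and immunoprecipitation) recovers the RNA fragments that ultraviolet light has fixed to a protein. The libraries came from mast cells grown out of C57BL/6 mouse bone marrow, kept for 4 to 6 weeks in 10 ng/ml interleukin-3 and 5 ng/ml stem cell factor and used at a purity above 97.5% for cells with FcεRI and c-Kit on their surface. Cells received 400 and then 200 mJ of ultraviolet light per square centimetre, and endogenous Tet2 was pulled down with an antibody. The labels give 3 replicates of this 1 group, with no allele, drug or second condition, and they do not say how many mice stood behind a replicate.

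Interleukin-3 is held by the alpha chain with low affinity and by the alpha and beta chains together with high affinity. The beta chain carries the signal into the cell, where it activates the kinase Jak2 and the transcription factors Stat5a and Stat5b. Mice have a pair of beta chain genes: the product of Csf2rb serves interleukin-3, interleukin-5 and GM-CSF, and that of Csf2rb2 serves interleukin-3. Through this receptor interleukin-3 supports the growth and survival of mast cells grown from bone marrow, and these cultures also held stem cell factor.

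The beta chain genes are neighbours on chromosome 15. Csf2rb2 spans 23215 nt (78282507 to 78305721) and Csf2rb spans 25202 nt (78325800 to 78351001), with 20078 nt between them. Each holds a microRNA gene near the end that faces away from the other gene. Mir7676-1 lies in Csf2rb2 at 78284788 to 78284849 on the minus strand, and Mir7676-2 lies in Csf2rb at 78348599 to 78348660 on the plus strand. RefSeq (GRCm38.p6, the assembly behind mm10) gives their hairpins as follows, with the mature arms in capitals. They are shown because they are the stretches of the beta chain genes whose sequence was available, and because the tallest peak of Csf2rb2 in every library, and of Csf2rb in replicate 1, lies beside one.
Mir7676-1 hairpin, in Csf2rb2: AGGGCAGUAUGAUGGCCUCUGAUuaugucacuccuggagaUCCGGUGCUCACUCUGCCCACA
Mir7676-2 hairpin, in Csf2rb: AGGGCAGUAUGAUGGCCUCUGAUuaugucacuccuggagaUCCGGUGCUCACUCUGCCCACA
The hairpins are the same in 62 of 62 bases and run in opposite directions, so the neighbouring copies mirror each other on the chromosome. Their mature products, with the seed (bases 2 to 8) in capitals, are these.
mmu-miR-7676-5p: aGGGCAGUaugauggccucugau
mmu-miR-7676-3p: uCCGGUGCucacucugcccaca
The hairpin's first base gave a common zero point for positions in the beta chain genes, counted along the hairpin's strand. RNA of the hairpins cannot be assigned to 1 of the genes by sequence, and how the authors placed reads that match both was not tested. Exons, introns and UTRs were not analysed here.

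The libraries held 2377 to 3019 peaks each, with a median height of 4 units in every library. A height unit is the fixed step of which all deposited heights of a library are whole multiples, and the heights of a library sum to 15431 to 19213 units. No source used here says if a unit stands for 1 read, and sequencing depth is unknown. Of 14 mast cell marker genes, 8 held a peak, and none of 8 neutrophil, 4 eosinophil and 5 lymphocyte markers did, while 2 of 8 macrophage markers (Adgre1 and Mertk) held 1 peak each in replicate 2 and 1 of 3 basophil markers (Cd200r3) held 1 in replicate 3. Of all protein-coding genes 14.1% held a peak, so 0 of lists this short says little about those cell types. Input RNA and a control antibody were not analysed here, so Tet2 binding and the amount of an RNA in these cells cannot be told apart. In a bulk culture, fewer cells of a type and less RNA per cell cannot be told apart either. The heights are the authors' own values and describe peaks within each list.

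Csf2rb2, whose product serves interleukin-3 alone, carried more peaks and more height than Csf2rb in every library. It held 11 peaks in replicate 1, 12 in replicate 2 and 11 in replicate 3, and Csf2rb held 9, 7 and 7. The ranges did not overlap. Csf2rb2 was ahead by 2, 5 and 4 peaks, a mean of 3.67 ± 1.53 (SD, n = 3). The heights of its peaks summed to 117, 120 and 94 units, and those of Csf2rb to 53, 50 and 46 units. The ratio of the summed heights was 2.21, 2.40 and 2.04, with a mean of 2.22 ± 0.178 (SD, n = 3), and the lowest sum of Csf2rb2 lay above the highest of Csf2rb. As a share of all height in a library, Csf2rb2 took 0.625% ± 0.0276 and Csf2rb 0.283% ± 0.0135 (SD, n = 3).

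The tallest peak of Csf2rb2 stood at 29, 27 and 20 units and that of Csf2rb at 13, 11 and 10 units, a ratio of 2.23 ± 0.227 (SD, n = 3). In height units replicate 3 was lowest for the tallest peak of each gene, and its list also sums to the fewest units (15431). As a share of library height, the tallest Csf2rb2 peak took 0.151%, 0.148% and 0.130%, with replicate 3 lowest. The tallest Csf2rb peak took 0.0677%, 0.0602% and 0.0648%, with replicate 2 lowest. The tallest peak made up nearly the same part of the gene's height in the 2 genes, 22.9% ± 1.78 in Csf2rb2 and 22.8% ± 1.54 in Csf2rb (SD, n = 3). Medians differed less: the median peak of Csf2rb2 stood at 8, 6.5 and 5 units and that of Csf2rb at 5, 7 and 5. Csf2rb2 held 4 peaks of 10 units or more in each library, and Csf2rb held 2, 2 and 1. Peaks of Csf2rb2 had median widths of 44, 20.5 and 27 nt and those of Csf2rb of 57, 27 and 32 nt, against 53 nt over all peaks of each library.

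An exact sign-flip permutation test of the difference within libraries, two-sided, gave p = 0.25 for the number of peaks, for the summed height and for the tallest peak. That is the smallest p this test can give with 3 libraries, so by this test no difference between the genes could pass 0.05. Csf2rb2 was the higher gene in 3 of 3 libraries for each of these 3 measures. It was also higher per 10000 nt of gene span, at 4.88 ± 0.249 peaks and 47.5 ± 6.13 units against 3.04 ± 0.458 peaks and 19.7 ± 1.39 units in Csf2rb (SD, n = 3). Counting peaks of at least 5 units reduced the lead in number of peaks to a mean of 1.67.

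**Figure D1:**
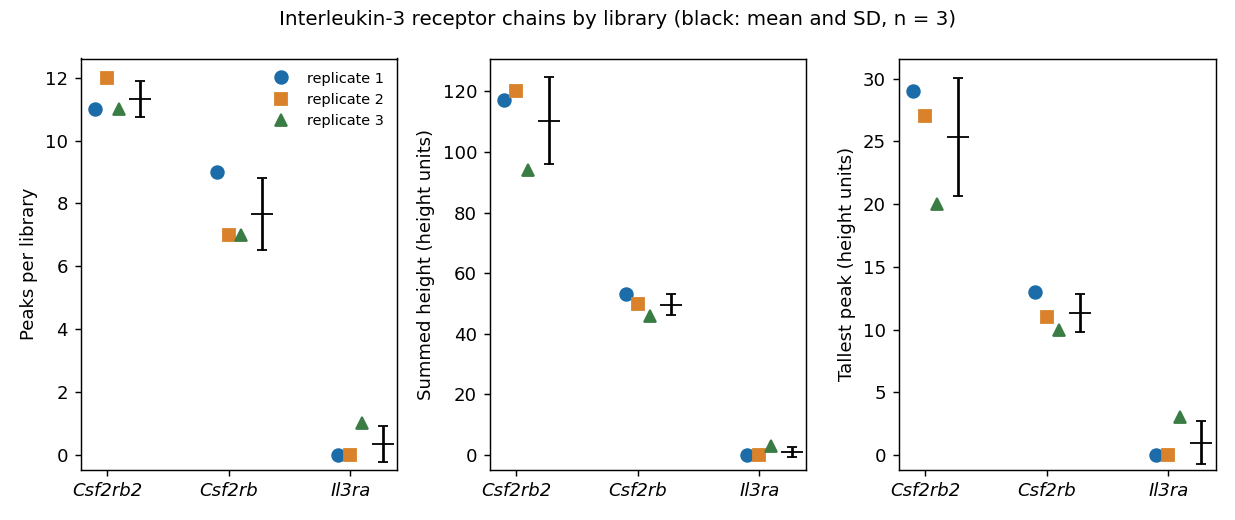
Number of peaks, summed height and tallest peak (height units) of Csf2rb2, Csf2rb and Il3ra in each library, with 1 point per library and the mean and SD (n = 3) in black. Csf2rb2 lies above Csf2rb in every panel with no overlap, and Il3ra has a single peak of 3 units in replicate 3.

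Il3ra, the gene of the alpha chain that binds interleukin-3 itself, spans 9582 nt of chromosome 14 (14345912 to 14355493). It held no peak in replicates 1 and 2 and 1 peak of 3 units in replicate 3, at 14350177 to 14350254. That is the lowest height in the list of replicate 3, where 1083 of 2377 peaks stood at 3 units. The peak was 78 nt wide. Among the 21900 protein-coding genes, 14.1% had a peak in 1 library or more, 8.55%, 8.04% and 7.02% had one in replicates 1, 2 and 3, and 3.16% had one in all 3 libraries. Csf2rb2 and Csf2rb belong to the last group and Il3ra does not.

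The beta chain genes stood high among protein-coding genes. A gene with a peak held a median of 1 peak in each library, with a median tallest height of 4 units. Ranked by number of peaks, with ties given the best rank, Csf2rb2 came 5th, 3rd and 1st in replicates 1, 2 and 3, and Csf2rb 8th, 11th and 8th. By summed height Csf2rb2 was 6th, 6th and 7th, and Csf2rb was 18th, 22nd and 15th. By the tallest peak alone they ranked lower, at 16, 20 and 31 for Csf2rb2 and at 90, 136 and 113 for Csf2rb.

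Most of the height of each beta chain gene lay in a pair of stretches. The first was the outer 5000 nt of the span, counted from the end that faces away from the other gene, where the hairpin lies. The second lay 9000 to 13000 nt from that end. In Csf2rb2 each of these stretches held 5 peaks in every library. The outer stretch summed to 51, 57 and 43 units and the inner one to 63, 53 and 48 units, or 45.6% ± 1.96 and 49.7% ± 4.98 of the gene's height (SD, n = 3). In Csf2rb the outer stretch held 4, 2 and 3 peaks with 25, 16 and 14 units, and the inner one held 5, 5 and 4 peaks with 28, 34 and 32 units. These came to 36.5% ± 9.24 and 63.5% ± 9.24 of its height (SD, n = 3). No peak of Csf2rb lay elsewhere in its span, while Csf2rb2 had 2 peaks between the stretches, both in replicate 2, and 2 further in. The limits of the stretches were chosen after the positions were seen.

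**Figure D2:**
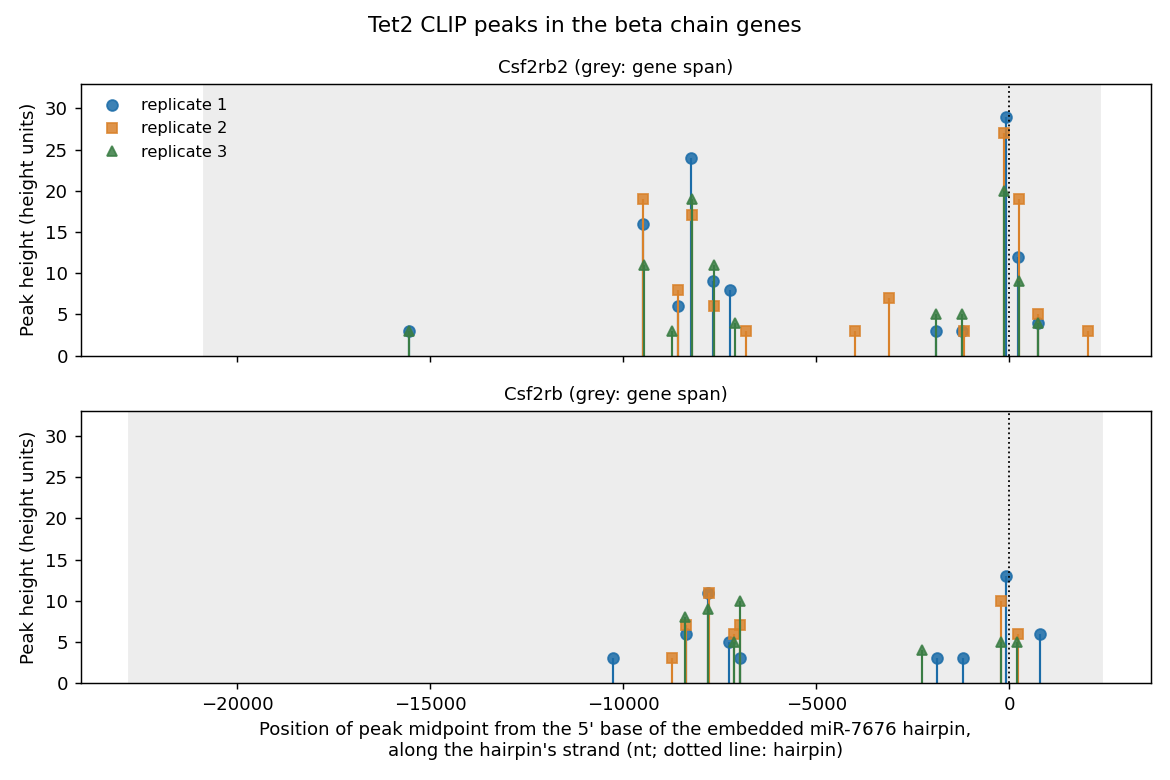
Height of each peak (height units) against the position of its midpoint from the first base of the hairpin, along the hairpin's strand (nt), for Csf2rb2 above and Csf2rb below, with 1 symbol per library and the gene span in grey. Peaks gather around the hairpin and 6807 to 9485.5 nt before it in Csf2rb2. Csf2rb has 2 such groups, the farther one 6977 to 10272.5 nt before its hairpin, and a lower tallest peak in each library.

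The tallest peaks of Csf2rb2 lay just before its hairpin. In replicate 1 the peak covered 78284928 to 78284946, 78 nt from the hairpin, at 29 units. In replicates 2 and 3 it covered 78284967 to 78284984, 117 nt from the hairpin, at 27 and 20 units. These peaks are 18 or 19 nt wide, and the peak of replicate 1 shares no base with the other. On the far side of the hairpin a second peak stood 161, 194 and 179 nt away, at 12, 19 and 9 units. No peak of Csf2rb2 overlapped the hairpin in any library.

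Csf2rb showed peaks beside its own hairpin in the same order. Replicate 1 had its peak at 78348502 to 78348527, 71 nt before the hairpin, at 13 units, the tallest of the gene in that library. Replicates 2 and 3 had theirs farther away, at 214 and 192 nt and at 10 and 5 units. The peaks before the hairpin were 26, 2 and 50 nt wide in replicates 1, 2 and 3. On the far side, replicates 2 and 3 held peaks of 6 and 5 units, 168 and 130 nt from the hairpin. Those were 6 and 44 nt wide, and replicate 1 held none within 500 nt. No peak of Csf2rb overlapped its hairpin either. In both genes the peak before the hairpin was nearest to it in replicate 1. At this position Csf2rb2 was the taller gene in each library, with 29 against 13, 27 against 10 and 20 against 5 units.

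**Figure D3:**
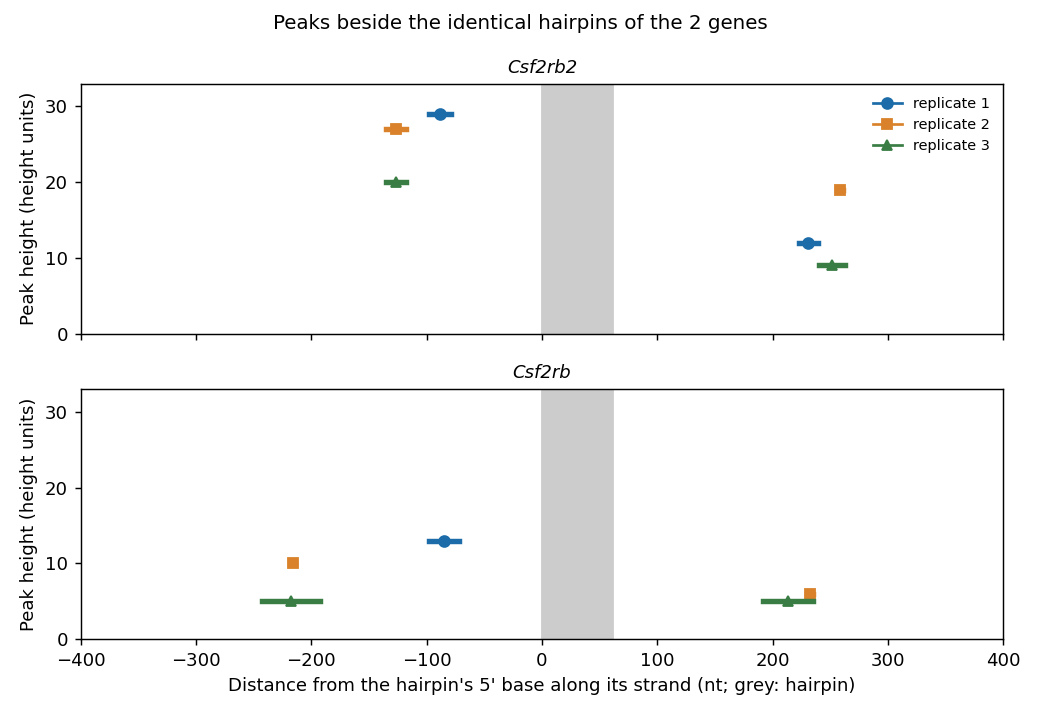
Peaks within 400 nt of the hairpin in Csf2rb2 (above) and Csf2rb (below). Bars show the extent of each peak (nt from the hairpin's first base) at its height (height units), coloured by library, and the hairpin is grey. A peak precedes the hairpin in every library of each gene, and no peak overlaps it.

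Many peaks of the neighbouring genes lay at like positions. Counted from the hairpin, 19 of 23 Csf2rb peaks had a Csf2rb2 peak of the same library within 200 nt (82.6%). The windows so drawn cover 16.9% to 18.9% of the Csf2rb span, depending on the library. In the other direction, 18 of 34 Csf2rb2 peaks had a Csf2rb peak within 200 nt (52.9%), with windows that cover 10.9% to 15.0% of the span. All Csf2rb peaks and most Csf2rb2 peaks lay in the outer and inner stretches. Shares of the whole span therefore do not show how close the sites are within a stretch, which was not tested. With positions counted from the outer ends of the spans, the numbers were 16 of 23 and 15 of 34. The hairpin lies at nearly the same distance from the outer end in each gene, so this is no separate check. In replicate 1, the Csf2rb2 peak 88 nt before the hairpin lay 2430 nt from the outer end. The Csf2rb peak 84.5 nt before its hairpin lay 2486.5 nt from that end. From the inner ends, which face each other, they were 5 of 23 and 6 of 34. The limit of 200 nt was chosen after the peaks were seen, and within 50 nt the number was 8 in each direction. The copies are identical at the hairpins, and the part that reads matching both genes play in these like positions was not tested.

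Heights at the like positions differed between the genes. Among the 19 Csf2rb peaks with a Csf2rb2 peak within 200 nt, the Csf2rb2 peak was taller in 11, equal in 2 and lower in 6. These are not separate pairs, since sites recur between libraries. In replicate 3, a Csf2rb2 peak of 4 units was set against Csf2rb peaks of 5 and of 10 units. In replicate 1, Csf2rb peaks at 1207 and 1881.5 nt before the hairpin lay 19 and 10 nt from Csf2rb2 peaks, and all 4 stood at 3 units. These are the equal pairs, at a height that 1271 of the 3019 peaks of that library had. The peak of Csf2rb 7770 to 7812.5 nt before its hairpin reached 11, 11 and 9 units, and the Csf2rb2 peak nearest to it reached 9, 6 and 11 units. A Csf2rb peak 8369.5 to 8408.5 nt before the hairpin stood at 6, 7 and 8 units, where the Csf2rb2 peak nearest to it stood at 24, 17 and 19. The balance between the genes varied from site to site.

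Counted by overlap, most loci found in all 3 libraries lay in the inner stretch. A locus here is a set of peaks that overlap by at least 1 nt. In Csf2rb2, a locus at 78293058 to 78293085 held peaks of 24, 17 and 19 units, which were 4, 28 and 9 nt wide. A locus at 78294281 to 78294362 held 16, 19 and 11 units, and one at 78292501 to 78292552 held 9, 6 and 11 units, with the same first base in all 3 libraries. The other locus found in all 3 libraries, at 78284089 to 78284099, lay past the hairpin and stood at 4, 5 and 4 units. In Csf2rb the loci found in all 3 libraries were at 78340180 to 78340274 (6, 7 and 8 units), at 78340771 to 78340842 (11, 11 and 9 units) and at 78341594 to 78341650 (3, 7 and 10 units).

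By that rule, 4 of 20 Csf2rb2 loci and 3 of 14 Csf2rb loci were found in all 3 libraries, against 11.1% of 5969 loci over the series, and 462 of 21900 protein-coding genes (2.11%) held such a locus. With peaks no more than 100 nt apart joined into 1 site, the numbers rose to 8 of 15 sites in Csf2rb2 and 5 of 12 in Csf2rb. Sites so found in all 3 libraries lay in the outer and the inner stretch of each gene. No share over the series is given for this wider rule, so the 11.1% is not its background. Before the hairpin of each gene, the narrower rule joins the peaks of replicates 2 and 3 and keeps that of replicate 1 apart, and the wider rule joins all 3. Of single peaks, 24 of 34 in Csf2rb2 (70.6%) and 15 of 23 in Csf2rb (65.2%) overlapped a peak of another library, against 46.3% of all peaks. Among peaks of 10 units or more the shares were 83.3% (10 of 12), 80.0% (4 of 5) and 83.0%, a like share in these genes and in the series. Among peaks of 5 to 9 units they were 8 of 10, 10 of 12 (83.3%) and 61.6%, and among peaks under 5 units 6 of 12, 1 of 6 and 34.1%. These shares rest on few peaks of each gene and were not tested. Of the overlapping peaks, 16 in Csf2rb2 (66.7%) and 12 in Csf2rb (80.0%) shared a start or an end with a peak of another library, against 62.9% in the series.

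The ground around the genes held few peaks. None lay in the 20078 nt between the beta chain genes in any library. Past the outer end of Csf2rb, by 149 nt, replicates 1 and 2 each held a peak of 3 units that begins at 78351151, which the span rule leaves out. Ncf4, which encodes a subunit of the phagocyte NADPH oxidase, is the nearest protein-coding gene beyond Csf2rb2 and held 2 peaks of at most 3 units in replicate 1 and none in the others. Tex33, the nearest beyond Csf2rb, held none in any library. The inner end of Csf2rb2 held no peak close by: the nearest were 3-unit peaks at 78300356 to 78300423 in replicate 1 and at 78300373 to 78300428 in replicate 3, with midpoints 5331.5 and 5320.5 nt from that end.

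Among other cytokine receptors, the share of genes with a peak in at least 1 library was near that of all protein-coding genes. Of 38 receptor genes of types I and II, 5 had a peak in some library (13.2%, against 14.1%). A peak in all 3 libraries was held by 3 of the 38, where protein-coding genes as a whole stood at 3.16%. A peak of 5 units or more was held by 4 of the 38, where protein-coding genes stood at 5.65%. By these stricter rules the receptor share was the higher, but it rests on few genes. These counts were not tested. Il31ra, a chain of the interleukin-31 receptor, held 1 peak in each library of 10, 12 and 7 units. Il4ra, the alpha chain of the interleukin-4 receptor, held 4, 7 and 2 peaks, the tallest at 7, 10 and 6 units, and both genes had a locus in all 3 libraries. Crlf2, a chain of the TSLP receptor, reached 5, 5 and 6 units. Csf2ra, the GM-CSF receptor alpha chain that works with the product of Csf2rb, held 2 peaks in replicate 2 alone, the taller at 5 units. Il6st, the shared signalling chain gp130, held 1 peak of 3 units in replicate 3. Il5ra, the alpha chain for interleukin-5, held none.

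**Figure D4:**
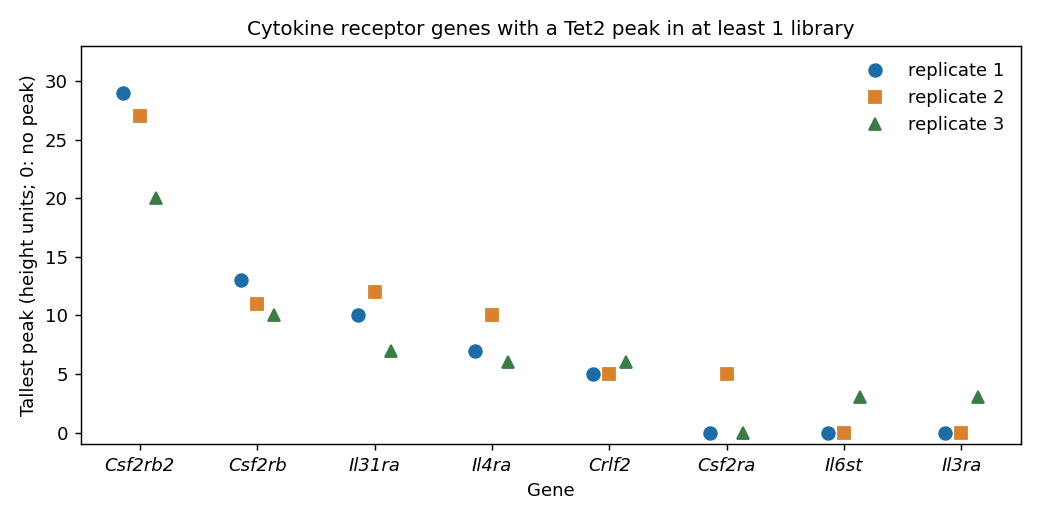
Tallest peak in each library (height units, 0 where there is no peak) for the interleukin-3 receptor genes and the 5 other cytokine receptor genes with a peak. Csf2rb2 lies above every other gene shown in each library, and Csf2rb overlaps Il31ra and Il4ra.

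By tallest peak, Csf2rb2 (20 to 29 units) lay above the other receptor genes plotted, whose highest value was 13. Csf2rb (10 to 13 units), Il31ra (7 to 12) and Il4ra (6 to 10) overlapped in range. Within libraries, Csf2rb was above Il4ra in 3 of 3 (13 against 7, 11 against 10 and 10 against 6 units) and above Il31ra in replicates 1 and 3, and these differences were not tested. Il3ra and Il6st shared the lowest place, with 3 units in replicate 3 alone.

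Of the genes for 4 growth factors of mast cells and their kin, 1 held a peak, a list too short to set against the 14.1% of protein-coding genes. Il3, Il5 and Csf2, whose products act through the beta chains, held none, and Kitl, which encodes the Kit ligand stem cell factor, held 1 peak of 3 units in replicates 1 and 3. Downstream of the receptor, 25 of 40 signalling genes had a peak in some library (62.5%, where protein-coding genes as a whole stood at 14.1%), with 18, 10 and 9 in replicates 1, 2 and 3. Without replicate 1 the number was 15, and no share of protein-coding genes is given for that setting. A peak of 5 units or more was held by 8 of the 40, and by 5.65% of protein-coding genes. A peak in all 3 libraries was found in 3 of the 40, where protein-coding genes as a whole stood at 3.16%. These were the Jak inhibitor Socs1, the kinase Pim1 and the catalytic subunit of PI3-kinase Pik3cd. Pim1 held 4, 5 and 4 peaks and was the 1 gene of the list with a locus shared by all libraries, and Pik3cd held 5, 5 and 1. The tallest peaks stood at 11, 18 and 6 units in Socs1, at 13, 7 and 10 in Pim1 and at 6, 8 and 3 in Pik3cd. Gab2, an adaptor that links receptors to PI3-kinase, held 1 peak of 6 units in replicate 2 alone. Tyk2 reached the same height, with 3 and 2 peaks in replicates 1 and 2 (tallest 5 and 6 units) and none in replicate 3. Stat5a held 1 peak of 3 units in replicates 1 and 2, Stat5b 1 of 3 units in replicate 1, and Jak2 none. Stat6, which acts with Il4ra, held 1 peak in replicate 1 and 2 in replicate 3, the tallest at 6 units. The lists were chosen with earlier results of these data known.

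The genes most like Csf2rb2 in number of peaks over the 3 libraries were Col5a1 (12, 10 and 11 peaks), Gata2 (14, 12 and 9), Gse1 (12, 15 and 9), Kmt2d (8, 13 and 8) and Plec (12, 11 and 5). Likeness was the sum over libraries of the absolute difference in number of peaks, which ran from 3 for Col5a1 to 8 for Plec. They differed in height. Col5a1, a collagen chain, summed to 311, 280 and 276 units against 117, 120 and 94 in Csf2rb2, while Gata2, a transcription factor of mast cells, summed to 83, 79 and 68 and Plec, a cytoskeletal linker, to 47, 45 and 24. For Csf2rb the nearest were Myh9 (8, 7 and 8 peaks), Furin (8, 9 and 6), Dgkz (6, 6 and 7), Dnmt1 (5, 7 and 8) and Rab44 (10, 9 and 5). Myh9, a non-muscle myosin heavy chain, summed to 34, 24 and 26 units against 53, 50 and 46 in Csf2rb. Its tallest peaks stood at 6, 4 and 4 units, below the 13, 11 and 10 of Csf2rb.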

How the data were processed

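The values are a signal that the authors deposited: 3 peak lists, 1 per library, with the position and a normalized height of each peak. Valley seeking called the peaks, per the labels' protocols. Tools named in the submitters' processing notes are cutadapt 1.9 and STAR 2.4.0i, with mm10 as the build. Sources used here do not give the caller's version, its thresholds or the treatment of reads that match several places. The heights of a library add up to 1 in multiples of 1 step (100% of peaks lie within 0.05 of a whole step), here called a height unit. Starts were read as 0-based and coordinates are printed 1-based. Blocks of columns were matched to samples by the replicate number in the heading.

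Gene spans (49980, of which 21900 protein-coding) and hairpin sequences came from RefSeq GRCm38.p6. A peak belonged to each span that held its midpoint. No peak of the 3 genes lay in a second span by that rule. Of all peaks, 46.3% overlapped a peak of another library, so no list was a copy. The libraries count as 3 replicates by their labels alone, since partial overlap cannot show that they are independent. No separate animals are named in the labels, so the SD may be partly technical. Genes were compared within libraries by an exact sign-flip permutation test. The scripts (Python 3.11.15, numpy 2.4.6, pandas 2.3.3) were tested on simulated peaks. Named genes are the members, the 5 genes of each list with the highest peak, genes of the lists with a locus in all libraries, the nearest neighbours, and the 5 genes closest in number of peaks. Il5ra, Jak2, Tyk2, Stat5a, Stat5b, the ligands, Adgre1, Mertk and Cd200r3 were named outside that rule, after their values were seen. The members and lists were chosen with earlier results of these data known.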

Additional observations from a re-analysis of the deposited data

How the results depend on the processing

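Differences between Csf2rb2 and Csf2rb kept their direction in every setting tried, and the exact sign-flip permutation test cannot go below p = 0.25 with 3 libraries. Leaving out 1 library at a time gave mean differences of 3 to 4.5 peaks, 56 to 67 units of summed height and 13 to 16 units for the tallest peak. Joining peaks within 100 nt raised the sites shared by all libraries from 4 to 8 in Csf2rb2 and from 3 to 5 in Csf2rb. The Il3ra peak was lost with a minimum of 5 units (0 peaks), and leaving out a library left 0 to 1 peaks. Of 38 cytokine receptor genes, those with a peak fell from 5 to 3 when a peak in all 3 libraries was required. Of protein-coding genes, 3.16% met that rule. The count of receptor genes ran from 4 to 5 without 1 library. Of 40 signalling genes, those with a peak fell from 25 to 3 with a peak in all 3 libraries, and to 8 with at least 5 units. Of protein-coding genes, 3.16% and 5.65% met those rules. Without 1 library, 15 to 22 signalling genes had a peak. For neither list is a share of protein-coding genes given without 1 library. Settings for like positions were added after seeing the data: of Csf2rb peaks, 8 matched within 50 nt, 10 within 100 nt and 5 with positions from the inner ends, against 19, and of Csf2rb2 peaks 8, 10 and 6, against 18. Positions from the outer ends gave 16 Csf2rb and 15 Csf2rb2 peaks. That count is close to the one from the hairpin by design, as the hairpin lies about equally far from each outer end. A limit of 300 nt with positions from the hairpin gave 20 and 19. Most low peaks stand at the lowest heights the lists hold, so the absence of a peak, as for Il3ra in replicates 1 and 2, shows no more than that none was called.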
